A study of Homo sapiens with 9 samples.

Results

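Of the 9588 genes in the deposited list, 3000 were transcribed, and 546 of these were shorter than 10 kb. A gene was taken as transcribed when its BrU-seq density in the first 3 kb was at least 15, and the 546 genes were therefore selected on their measured BrU-seq density and on their length, so both values are given below as a description. They made up 18.2% of the transcribed genes, and the other 2454 transcribed genes were at least 10 kb long. The study followed H2BK120Ub, the monoubiquitin mark that the transcription machinery places on histone H2B in gene bodies, after UV-C irradiation of RPE1 cells. These are an hTERT-immortalized human retinal pigment epithelial line, here with an inducible Cas9 (iCas9) and with both p53 and the puromycin resistance gene knocked out. ChIP-seq was performed on 2 mock-treated libraries, 2 libraries collected 3 h and 4 libraries collected 24 h after 9 J/m2 UV-C, with 1 input library from mock-treated chromatin, and all 9 carried the same cell background. The list gives a position, a length and 1 BrU-seq value per gene, without ChIP-seq values for the separate libraries. ChIP-seq signal and depth were therefore not analysed here, and no value below compares irradiated with mock-treated cells.

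BrU-seq sequences RNA that took up bromouridine during a short pulse and thus reads nascent RNA. The value is a score, the density of nascent reads that an earlier experiment gave in unirradiated WT cells, and it stands without an error because the libraries behind it are not separated. Short genes have few or short introns, so RNAPII reaches their end soon after it leaves the promoter. UV-C light joins neighbouring pyrimidines in DNA, most readily a pair of thymines, and such a photolesion in the transcribed strand stalls RNAPII. A short gene offers few such positions, and genes for ribosomal proteins, for histones and for the immediate early response to growth signals are textbook examples of short and strongly transcribed genes. Of the retinal pigment epithelium marker genes, 6 were in the list. Only OTX2, a transcription factor of that lineage, was transcribed, at a density of 217.1 and a length of 10575 bp, while RPE65 (0.26), LRAT (0.997), RLBP1 (1.26) and TTR (0) lay near 0 and MITF had 13.3. TERT, the telomerase gene and the only listed one among markers of other cells and of immortalized lines, had 5.2, and no gene of either marker list was among the short transcribed genes.

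The sequence before the start of transcription is shown for 12 of the most strongly transcribed short genes, because it shows the promoters that the BrU-seq densities belong to: ribosomal protein and immediate early genes, and others that hold a TATA box. Each line gives the 60 bases before the listed start, read 5′ to 3′ on the coding strand of GRCh38. Capitals mark TATAAA when it lies between 40 and 20 bases before the start, and CCAAT or GGGCGG in either orientation anywhere in the stretch. The fifth of these, ZFP36L1, holds both motifs in one run of capitals, where TATAAA and ATTGG overlap by 1 base.
CCN1, chr1:85580701-85580760, plus strand: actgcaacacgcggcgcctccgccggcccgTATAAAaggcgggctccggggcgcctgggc
RPS24, chr10:78033803-78033862, plus strand: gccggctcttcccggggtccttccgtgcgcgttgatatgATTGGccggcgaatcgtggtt
RPS14, chr5:150449740-150449799, minus strand: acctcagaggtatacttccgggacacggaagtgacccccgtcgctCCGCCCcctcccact
RPL26, chr17:8383194-8383253, minus strand: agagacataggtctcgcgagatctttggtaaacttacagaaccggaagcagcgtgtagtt
ZFP36L1, chr14:68793068-68793127, minus strand: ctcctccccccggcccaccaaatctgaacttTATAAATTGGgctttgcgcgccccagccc
RPL37A, chr2:216498784-216498843, plus strand: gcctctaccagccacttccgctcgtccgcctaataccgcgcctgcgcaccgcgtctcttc
PPIA, chr7:44796621-44796680, plus strand: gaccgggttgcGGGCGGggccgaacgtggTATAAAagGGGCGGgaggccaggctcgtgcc
RGS4, chr1:163069301-163069360, plus strand: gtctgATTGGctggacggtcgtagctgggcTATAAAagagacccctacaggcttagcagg
RPL11, chr1:23691746-23691805, plus strand: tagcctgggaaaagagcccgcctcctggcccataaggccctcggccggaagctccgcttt
MCL1, chr1:150579611-150579670, minus strand: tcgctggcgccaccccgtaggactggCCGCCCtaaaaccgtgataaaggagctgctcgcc
KLF6, chr10:3785210-3785269, minus strand: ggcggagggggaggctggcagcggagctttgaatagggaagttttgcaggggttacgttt
PPP1R15A, chr19:48872361-48872420, plus strand: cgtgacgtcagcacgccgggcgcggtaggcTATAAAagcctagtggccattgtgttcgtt
In CCN1, RGS4 and PPP1R15A the TATAAA began 30 bases before the start, in PPIA 31 bases and in ZFP36L1 29 bases before it. None of the 5 ribosomal protein promoters shown held TATAAA in that window, and of all 14 short cytosolic ribosomal protein genes 1 did, RPL22L1 (672.5). PPIA, which encodes cyclophilin A, held a GGGCGG on each side of its TATAAA.

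The TATA box motif, TATAAA in this window, was found in 21 of the 546 short transcribed genes (3.85%), in 29 of the 2454 longer transcribed genes (1.18%), in 153 of the 2127 genes under 10 kb with a density below 15 (7.19%) and in 3.77% of the 9538 listed genes that matched the annotation. Among the longer transcribed genes, those with the motif had a median density of 140.9 and those without it 62.8. The 21 short transcribed genes with it had a median density of 284.4, against 65.9 in the 525 without it. They included MYC (490.4), the growth-promoting transcription factor, DKK1 (416.8), a secreted inhibitor of Wnt signalling, HLA-E (284.4), an antigen-presenting molecule, STING1 (58.8), a sensor adaptor of innate immunity, FOS (33.6), an AP-1 subunit, and CXCL8 (32.5), a chemokine. CCAAT, in either orientation within 250 bases before the start, was found in 41.6% of the short transcribed genes and in 35.1% of the longer ones, with 35.1% over all listed genes. GGGCGG, the GC box that SP1-type factors read, was found in 61.2% against 70.9%, with 40.8% over all listed genes. CTTTC from 5 bases before to 10 bases after the start, a part of the pyrimidine tract typical of ribosomal protein genes, was found in 12 short transcribed genes (2.20%), in 2.28% of the longer ones and in 2.14% of all listed genes. Of these 12 genes, 4 were among the 14 cytosolic ribosomal protein genes.

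The promoters of the short transcribed genes were rich in CpG. In the 300 bases around the start, the ratio of observed to expected CpG had a median of 0.812 in the short transcribed genes, 0.856 in the longer ones and 0.278 in the short genes with a density below 15. A ratio of at least 0.6 was reached by 427 of the 546 (78.2%), by 87.5% and by 19.1%, respectively. Among the short transcribed genes, the 427 had a median density of 80.4 and the other 119 a median of 42.0. The longer transcribed genes had medians of 65.3 and 48.0 by the same split. LGALS1, which encodes the lectin galectin-1, had the highest density among the 119, at 1505.

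The BrU-seq density of the short transcribed genes spread over a wider range than that of the longer ones. Their median was 68.3 with quartiles at 33.1 and 150.7, against a median of 63.2 with quartiles at 35.9 and 105.0 in the longer genes. The densities ran from 15.0 to 12067 in the short genes and from 15.0 to 1729 in the longer ones. A density of at least 100 was reached by 194 short genes (35.5%) and 664 longer ones (27.1%), and at least 1000 by 18 short genes (3.30%) and 7 longer ones (0.285%). The short genes filled 16 of the 20 highest ranks of the list and 58 of the highest 100. They held 34.4% of the summed density of all transcribed genes, and EEF1A1 and PLK2 alone gave 17.9% of the summed density of the short ones. At the low end the groups were nearer to each other, with 22.2% of the short genes and 18.1% of the longer ones below a density of 30.

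The share of genes at high density was lower in each longer size class. It was 9 of 17 transcribed genes under 3 kb (52.9%), 37.4% from 3 to 5 kb, 33.8% from 5 to 10 kb, 28.3% from 10 to 50 kb, 26.5% from 50 to 100 kb and 23.1% in longer genes, for a density of at least 100. The median density was highest in the 17 genes under 3 kb, at 143.0, and lowest in genes of at least 100 kb, at 53.8. Between these it was 69.6 from 3 to 5 kb, 63.9 from 5 to 10 kb, 63.4 from 10 to 50 kb and 67.3 from 50 to 100 kb. Across the 546 short genes, length and density had a Spearman correlation of -0.05, and across the longer ones -0.04, given as a description across genes. Being transcribed was rarer among short genes, since 546 of 2717 listed genes under 10 kb (20.1%) passed the threshold, against 2454 of 6871 genes of at least 10 kb (35.7%). Among protein-coding genes alone the shares were 30.5% and 50.5%, and among lncRNA genes 7.22% and 6.36%.

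**Figure D1:**
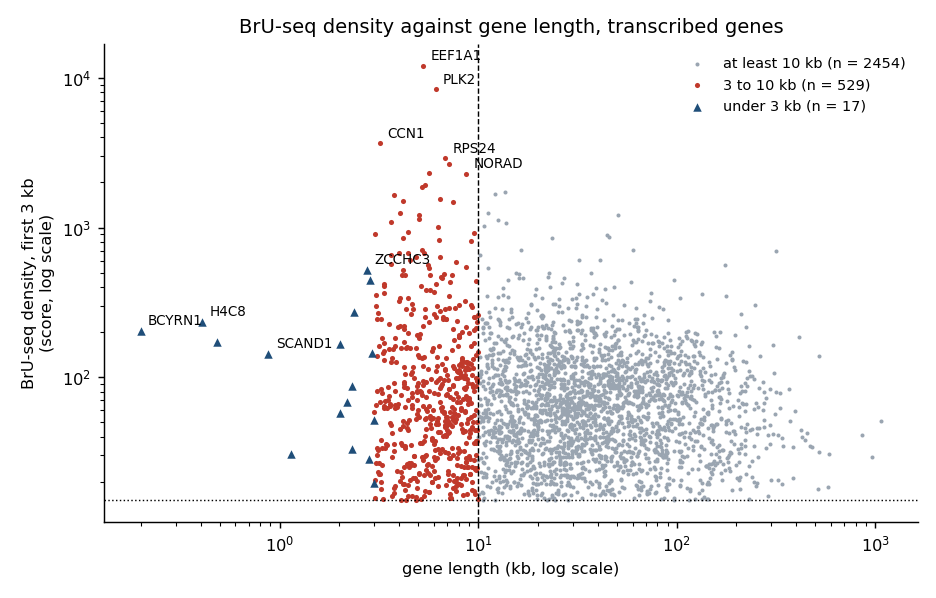
BrU-seq density in the first 3 kb (score, log scale) against gene length in kb (log scale) for the 3000 transcribed genes, 1 point per gene, with dashed and dotted lines at the thresholds of 10 kb and 15. The highest points lie left of the 10 kb line, from EEF1A1 at 12067 to NORAD at 2292, and the highest to its right is at 1729, while blue triangles mark the 17 genes under 3 kb.

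EEF1A1, which encodes the elongation factor that brings aminoacyl-tRNA to the ribosome, had the highest density of the list, at 12067. It lies on the minus strand of chromosome 6 from 73515750 to 73521032, has 8 exons and is 5283 bp long. PLK2, a stress-responsive kinase and p53 target, followed at 8380, from 58453982 to 58460086 on the minus strand of chromosome 5, with 14 exons in 6105 bp. CCN1, an early growth-response gene for a secreted matrix protein, had 3657 and spans 85580761 to 85583950 on chromosome 1, plus strand. The next were the ribosomal protein genes RPS24 (2896), RPS14 (2650) and RPL26 (2325), and NORAD (2292), a lncRNA that binds Pumilio proteins and the only noncoding gene among the 15 highest. ZFP36L1, an RNA-binding protein that promotes mRNA decay, had 1926, RPL37A had 1868 and EIF1, which selects the start codon, had 1653. PPIA had 1553, LGALS1 1505, RGS4, an inhibitor of G-protein signalling, 1484 and RPL11 1206.

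Within the protein synthesis machinery, cytosolic ribosomal protein genes were mostly short and translation factor genes mostly longer. Of 17 transcribed cytosolic ribosomal protein genes, 14 were shorter than 10 kb (82.4%, against 18.2% of all transcribed genes). Their densities ran from 302.4 in RPS27L, a ribosomal protein paralog, to 2896 in RPS24, with a median of 693.7, and all 14 were above 100. RPL6 had 931.1, RPS4X 706.9, RPL19 680.5, RPL22L1 672.5, RPL35A 632.7, RPL27 610.2 and RPS7 536.1. The 3 longer members of the family had 533.7 in RPL14, 283.3 in RPL22 and 62.1 in RPL39L, so the groups overlapped. Of 16 transcribed translation factor genes only EEF1A1 and EIF1 were short (12.5%, below the 18.2% of all transcribed genes). The 14 longer ones had a median of 141.2. The genes of the mitochondrial ribosome did not share the high densities. Of 19 transcribed ones 7 were short (36.8%, against 18.2% of all transcribed genes). These 7 had densities from 17.5 in MRPL23 to 122.2 in MRPS30 and a median of 73.9, next to 69.6 in the 12 longer ones. Reads that map to up to 20 places were kept at 1 place by the authors, and ribosomal protein genes and EEF1A1 have many processed pseudogene copies, so how their reads were split was not tested.

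Respiratory chain and ATP synthase genes gave 9 short genes among 22 transcribed ones (40.9%, against 18.2% of all transcribed genes). COX7C, a subunit of cytochrome c oxidase, had 909.6, UQCR10, of complex III, 356.0, COX7A2 263.9, NDUFB4, of complex I, 250.9 and ATP5MC1, of the ATP synthase ring, 246.3. The lowest were COX17, a copper chaperone for cytochrome c oxidase, at 68.2 and ATP5F1D at 64.9. Their median was 246.3, against 95.8 in the 13 longer genes of the list. Splicing factor and hnRNP genes gave 10 short genes among 26 (38.5%), with a median of 374.5 against 184.0. At the top of the short ones stood SRSF6 (819.2), SRSF5 (631.0) and SRSF7 (586.6), SR proteins that bind exons and regulate splicing. With them stood HNRNPH1 (915.7) and HNRNPA0 (543.0), which bind pre-mRNA. The Sm-like genes LSM10 (51.8) and LSM2 (28.0) stood at the bottom. The longer SRSF3, at 1256, lay above all of these, and the longer HNRNPC had 703.0.

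Of 17 transcribed immediate early and growth response genes, 13 were short (76.5%, against 18.2% of all transcribed genes). Their median density was 490.4, against 74.6 in the 4 longer ones. A density of at least 100 was reached by 11 of the 13, and by 35.5% of all short transcribed genes. After CCN1 and ZFP36L1 came MCL1, an anti-apoptotic BCL2 family member, at 1133, KLF6 at 806.7, PPP1R15A, a phosphatase subunit of the stress response, at 654.3, IER5 at 519.4 and MYC at 490.4. TRIB1 had 304.7, GADD45A 268.3 and EGR1, a zinc finger factor induced within minutes of stimulation, 182.4. The lowest were KLF10 at 54.1 and FOS at 33.6. TATAAA was found in 5 of these 13 promoters. Most listed genes of this kind were short whether transcribed or not, since 19 of the 24 were under 10 kb. A further 6 of these 19 fell below the threshold of 15.

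Of 8 transcribed p53 target genes 4 were short (50%, against 18.2% of all transcribed genes). Their densities were 8380 in PLK2, 286.7 in PMAIP1, a pro-apoptotic BH3-only gene, 268.3 in GADD45A and 75.4 in BAX, the pore-forming effector of apoptosis. The 4 longer ones had a median of 44.6. Among chaperone genes, HSP90AA1 (1012) and DNAJB1 (573.8), both heat-inducible, lay well above DNAJB2 (57.6) and DNAJC22 (46.4), and the 14 longer chaperone genes had a median of 78.9. The small GTPases ARF6 (676.6), of membrane traffic, and RAN (565.2), of nuclear transport, stood above RAB29 (71.7), and the 6 short genes had a median of 354.9 against 91.3 in the 14 longer ones. Both short proteasome genes, PSMD2 (441.5) and PSMC3 (291.6), and the tubulin TUBA1A (481.3) and glycolytic PGAM1 (431.1) were also above 100. The longer proteasome genes had a median of 99.2. In the cytoskeleton list the only longer transcribed gene, LMNA, had 272.8. In the glycolysis list it was LDHB, at 464.6, above PGAM1.

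Several groups lay lower. Of 62 listed lineage transcription factor genes, taken by symbol and many of which set cell identity in development, 37 were under 10 kb. Of these 37, 11 were transcribed. SOX9 had 284.0 and SOX4 157.0, while NKX2-5 (33.5), HOXB9 (29.2), MSX1 (17.5) and HOXC8 (16.7) lay near the threshold. The median of 48.7 was below that of the 6 longer ones, 106.6. These 6 were OTX2 (217.1), FOXO3 (197.7), PAX6 (137.2), FOXJ2 (76.0), SIX4 (66.9) and FOXK1 (31.2), and not all of them are specific to a lineage. Of 152 transcribed ZNF zinc finger genes 17 were short (11.2%, against 18.2% of all transcribed genes), and their densities ran from 15.3 in ZNF860 to 98.9 in ZNF706. Of 20 listed chemokine and cytokine genes under 10 kb, IL1B (42.0) and CXCL8 passed. Over all listed genes under 10 kb, 20.1% passed, and 30.5% of the protein-coding ones. The 9 short solute carrier genes had a median of 50.0, next to 41.7 in the 42 longer ones, with SLC30A1, a zinc exporter, highest at 177.4. Of the stress response genes, CHAC1, which degrades glutathione, had 15.5 beside PPP1R15A, and S100A2, a calcium-binding protein, had 29.7 as the only transcribed gene of 5 listed S100 and metallothionein genes. TUBG1, the gamma-tubulin of the centrosome, had 59.2. In all, 137 of the 546 short transcribed genes (25.1%) belonged to at least 1 list.

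**Figure D2:**
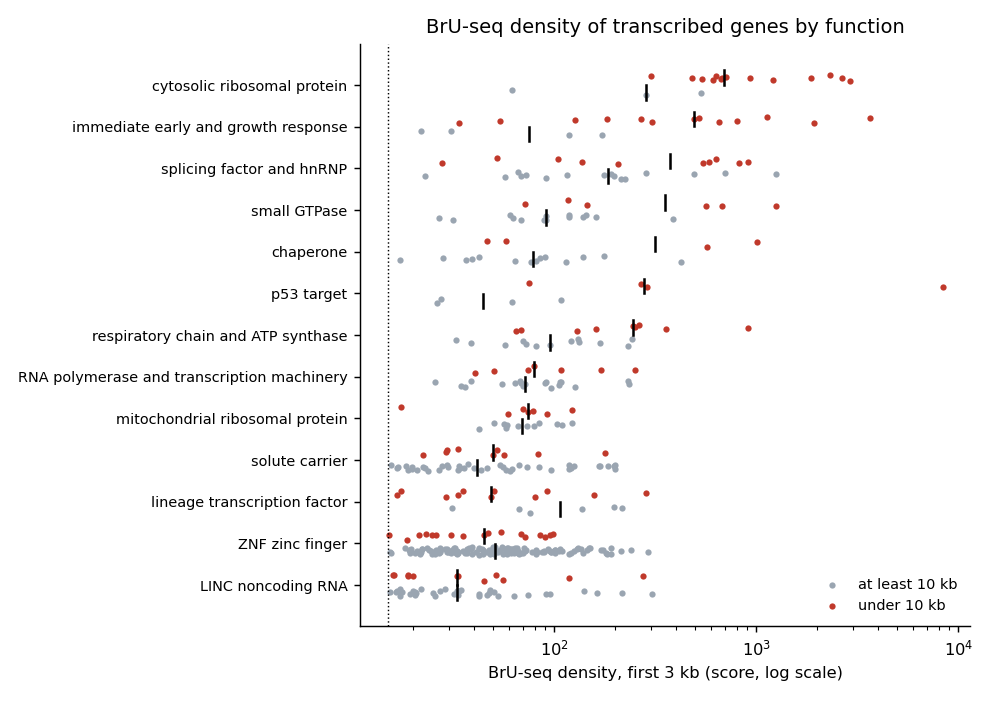
BrU-seq density in the first 3 kb (score, log scale) by functional list, 1 point per transcribed gene under 10 kb (red) or of at least 10 kb (grey), for the lists with at least 4 short genes; black bars mark medians and the dotted line the threshold of 15. The red median runs from 693.7 in cytosolic ribosomal protein genes to 33.2 in LINC noncoding RNA genes, and red and grey points overlap in every list shown, also in the p53 targets, where BAX at 75.4 lies below the longer AEN at 107.9.

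Of the machinery that the study itself is about, the share of short genes lay near or above the 18.2% of all transcribed genes, at counts too small to compare. Of 8 transcribed nucleotide excision repair and transcription-coupled repair genes 2 were short (25%), POLD2, a DNA polymerase delta subunit, at 91.8 and ELOF1, the elongation factor that helps to position repair proteins on stalled RNAPII, at 50.5, and the 6 longer ones had a median of 104.5. Of 5 transcribed genes that write or erase H2BK120Ub or belong to PAF1C, 1 was short (20%). This was UBE2A, a ubiquitin-conjugating enzyme for H2BK120, which was 9861 bp long and had 94.4, and the related UBE2B, at 20540 bp, had 124.5. Of 26 transcribed RNA polymerase and transcription machinery genes, 7 were short (26.9%), from MED10 (250.9) and POLR2K (170.2), a subunit shared by the RNA polymerases, to MED18 (40.4).

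Fewer of the short transcribed genes coded for protein. Of the 546, 451 were protein-coding (82.6%), 80 were lncRNA genes (14.7%) and 9 carried the class TEC, which awaits experimental evidence, against 93.8%, 5.83% and 0.0407% of the longer ones. In the short genes with a density below 15, 48.0% were protein-coding. The protein-coding short genes had a median density of 81.3, the lncRNA genes 32.2 and the TEC genes 30.2. NORAD was the exception among lncRNA genes, and LINC00641 (276.6) and DLGAP1-AS1 (220.9) followed. Among the 12 short transcribed LINC genes, the densities ran from 15.9 in LINC00921 to 276.6, with a median of 33.2 next to 33.1 in the 37 longer ones, and 269 LINC genes under 10 kb were listed.

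Many of the noncoding genes overlapped another gene. Of the 80 lncRNA genes, 28 had a protein-coding gene on the same strand within their first 3 kb, with a median density of 32.9, and 15 had one on the opposite strand. RC3H1-IT1 (76.9), for example, lies within RC3H1, and PPP1R12A-AS1 (110.5) against PPP1R12A. A protein-coding gene on the same strand was also present in 4 of the 9 TEC genes. Of the 143 longer transcribed lncRNA genes, 15 had a protein-coding gene there on the same strand and 31 on the opposite strand. The short lncRNA genes thus had the higher share on the same strand but not on the opposite strand. Over all 546, another annotated gene entered the first 3 kb in 162 (29.7%), against 16.6% of the longer transcribed genes, 32.3% of the short genes below the threshold and 24.1% of all listed genes. It was on the same strand in 78 (14.3%, against 6.56% of the longer and 8.74% of the short genes below the threshold) and on the opposite strand in 92 (16.8%, against 10.8% and 24.6%). The 162 had a median density of 55.2 and the other 384 a median of 77.7. The 162 differed in gene type, with 55 lncRNA or TEC genes (median 30.9) and 102 protein-coding genes (median 75.7). All protein-coding short genes had a median of 81.3. In the longer transcribed genes the medians were 61.1 with another gene there and 63.6 without. The authors kept strand in their BrU-seq tags and state stranded counting for their profiles, but for this density they give only the default settings of HOMER's annotatePeaks.pl, so reads of the gene and of an overlapping one cannot be told apart here.

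A gene that starts on the other strand within 1 kb upstream was as frequent before short as before longer transcribed genes, at 85 of 546 (15.6%) and 15.2%, with 7.69% over all listed genes and 3.29% in the short genes below the threshold. The 85 genes had a median density of 96.5 and the other short transcribed genes 62.4, and in the longer ones the medians were 73.1 and 61.8. These starts are those of whole genes in GENCODE 44, which can lie elsewhere than the start in the list. Such a partner was ZMAT5 for UQCR10 (356.0) and RRP12, an rRNA processing gene, for PGAM1 (431.1). A divergent protein-coding start was present in 7.33% and 6.40%.

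Strand and spacing differed little from those of the longer genes. The plus strand held 284 of the 546 (52.0%), against 53.6% of the longer transcribed genes and 50.7% of all listed genes, and the median density was 70.4 on the plus and 64.8 on the minus strand. The nearest listed gene lay at a median of 34820 bp, against 37029 bp for the longer transcribed genes and 45257 bp over all listed genes. It was closer than 10 kb for 144 of the short genes (26.4%, against 23.1%) and closer than 2 kb for 18 (3.30%, against 4.28%). It was itself transcribed for 44.1% of the short and 44.3% of the longer genes. Density did not change with distance in a single direction, with medians of 63.3 under 10 kb, 73.9 from 10 to 50 kb and 64.2 beyond. The list holds genes that the authors chose for their spacing, so these distances are between listed genes and not between all genes.

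Within 10 kb of each other as nearest listed neighbours lay 10 pairs of short transcribed genes. CREBZF (350.8), a bZIP factor, and TMEM126A (83.2), a mitochondrial protein, were the closest pair, 1447 bp apart and convergent. SLC39A13 (56.1) and PSMC3 (291.6) were convergent at 2278 bp, DDX56 (99.8) and TMED4 (157.1) in tandem at 3985 bp, and the Polycomb genes CBX8 (56.8) and CBX2 (24.7) convergent at 4148 bp. Of the 10 pairs, 3 were divergent, 3 convergent and 4 in tandem, and the glutathione transferase genes GSTM4 (22.8) and GSTM2 (15.6) were one of the tandem pairs. Only 6 of the 546 had another listed gene within their first 3 kb. DLGAP1-AS1 (220.9) and DLGAP1-AS2 (229.0) were one such case on the same strand, with similar densities.

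Short transcribed genes were unevenly spread over chromosomes. They made up 25 of 80 transcribed genes on chromosome 16 (31.2%), 41 of 143 on chromosome 11 (28.7%) and 20 of 76 on chromosome 14 (26.3%), but 8 of 131 on chromosome 4 (6.11%) and 5 of 42 on chromosome 21 (11.9%). Of all listed genes, 34.1% on chromosome 16 and 21.3% on chromosome 4 were under 10 kb. Other chromosomes did not keep this order, since 27.7% of the listed genes on chromosome 21, 32.7% on chromosome X and 33.3% on chromosome 12 were under 10 kb, beside 11.9%, 15.9% and 18.1% of the transcribed ones. Their median density was 43.2 on chromosome 16, 47.1 on chromosome 19 and 144.8 on chromosome 5, where PLK2 and RPS14 lie among 24 genes.

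**Figure D3:**
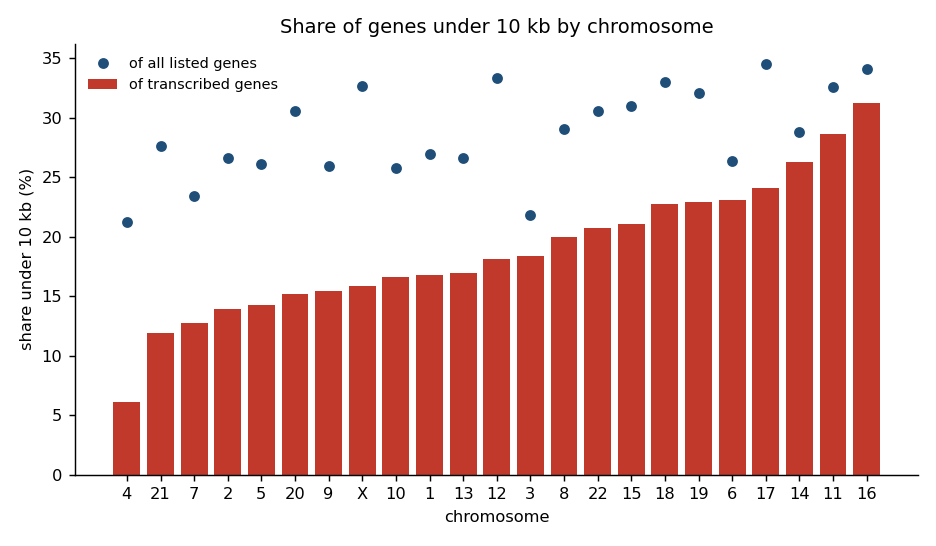
Share of genes under 10 kb in percent by chromosome, among transcribed genes (red bars, axis from 0) and among all listed genes (blue points), with chromosomes ordered by the red bars. The bars run from 6.11% on chromosome 4 to 31.2% on chromosome 16.

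The short transcribed genes had few exons. Their canonical or matching transcript had a median of 3 exons, with quartiles at 2 and 5, against 9 in the longer genes. A single exon was annotated for 62 (11.4%, against 0.285%), and 29 of these were protein-coding, among them HNRNPA0 (543.0), IER5 (519.4), SOX4 (157.0) and UBQLN2 (172.9), a ubiquilin of protein quality control. The protein-coding genes of a single exon had a median density of 155.6, but all 62 genes of a single exon had 61.9. The 114 short genes of 2 exons had 61.8. At the other end, POMGNT1, a glycosyltransferase gene, had 22 exons in 9752 bp with a density of 36.4, PSMD2 had 21, and 36 of the 546 had at least 10. The median spliced length was 2162 nt against 3751 nt, and the median coding length of the protein-coding genes 840 nt against 1470 nt. Introns made up a median of 64.1% of the gene in the short transcribed genes whose listed ends were those of an annotated transcript and 90.5% in the longer ones.

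The 3 kb window in which the density was taken covered much more of a short gene. It held a median of 49.9% of the gene, against 8.21% in the longer genes, a difference that the split by length fixes. Exons filled a median of 18.6% of the window in short genes, with quartiles at 9.44% and 43.2%, against 7.93% in the longer ones and 13.3% in the short genes below the threshold. In CCN1 exons filled 69.6% of the window, whereas in RGS4 they filled 5.6% and in PPIA 7.77%, with densities above 1000 in all 3. Across the 546 genes the exonic share and the density had a Spearman correlation of 0.08, and across the longer genes 0.05, both as descriptions. BrU-seq reads of spliced RNA fall in exons, and how far this contributes to the densities was not tested.

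Of the short transcribed genes, 17 were under 3 kb, although the authors state a minimum of 3 kb for the list, and the window of 3 kb passed their end. Their median density was 143.0. ZCCHC3, an RNA- and DNA-binding protein of innate immunity, had 521.5 at 2752 bp, GSTP1, a glutathione transferase, 443.1 at 2842 bp, and CSTB, a protease inhibitor, 271.5 at 2359 bp. The histone genes H4C8 (235.1) and H3C6 (172.4), of the cluster on chromosome 6, were 409 and 482 bp long, so that 2591 and 2518 bp of their windows lay past the end. BCYRN1, a small neuronal RNA made by RNA polymerase III, was the shortest at 200 bp and had 204.8, with EPCAM-DT in its window. NRM, a nuclear membrane protein, had 144.9, SCAND1 143.0 at 879 bp and DBNDD2 87.3. The next were CHST14 (68.3) and UQCC3 (57.4). OCEL1 (19.6) and LINC00920 (51.4) fell short of 3 kb by 6 and 1 bp. Other annotated genes entered the windows of both histone genes, and reads past the end of a gene cannot be told apart from its own in these densities.

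Base composition differed between the groups. The gene body had a median GC content of 48.1% in the short transcribed genes, against 41.5% in the longer ones, 46.6% in the short genes below the threshold and 42.8% over all listed genes. It ran from 28.7% in an unnamed lncRNA gene (ENSG00000274422) and 31.7% in CXCL8 to 67.8% in TOR4A, a torsin ATPase, and 69.1% in SCAND1. Across the 546 genes, GC content and density had a Spearman correlation of -0.23, and the CpG ratio of the promoter and density 0.25, as descriptions. Across the longer transcribed genes the values had the same signs, -0.18 and 0.13. AATAAA, the main polyadenylation signal, lay in the last 40 bases of 59.5% of the short and 65.5% of the longer transcribed genes, with 57.3% over all listed genes.

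TT pairs on the transcribed strand were counted as the most reactive sites for UV-C. A short transcribed gene held a median of 414 of them, with quartiles at 291.5 and 572.8, and a longer one 2978, with no lesion measured in either. The groups were split by length, so this difference per gene is largely set by the split. TT per gene and gene length had a Spearman correlation of 0.74 across the short genes and 0.97 across the longer ones. MTERF2, a mitochondrial transcription terminator family gene, had most, 1040 in 9870 bp, followed by RFXAP with 1021 and ASNSD1 with 1016. SCAND1 had 23, H4C8 25 and H3C6 31. Of the strongly transcribed genes, EEF1A1 held 499, PLK2 573, CCN1 240, RPS24 562, NORAD 758, RGS4 701 and EIF1 280. The 14 cytosolic ribosomal protein genes had a median of 412.5 and the 13 immediate early genes 305.

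Per kb of gene the difference was smaller, with medians of 72.7 TT in the short and 85.2 in the longer genes. GPAA1, which attaches proteins to GPI anchors, had 18.4 per kb and MXRA8 20.8, while IFIT2, an interferon-induced gene, had 124.3. TT per kb and GC content had a Spearman correlation of -0.91 across the 546 genes and -0.88 across the longer ones. When TT, TC, CT and CC were all counted, the short genes held 279.7 dipyrimidines per kb and the longer ones 269.4, so the order of the groups turned. On the coding strand the short genes had 85.5 TT per kb and the longer ones 108.1.

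**Figure D4:**
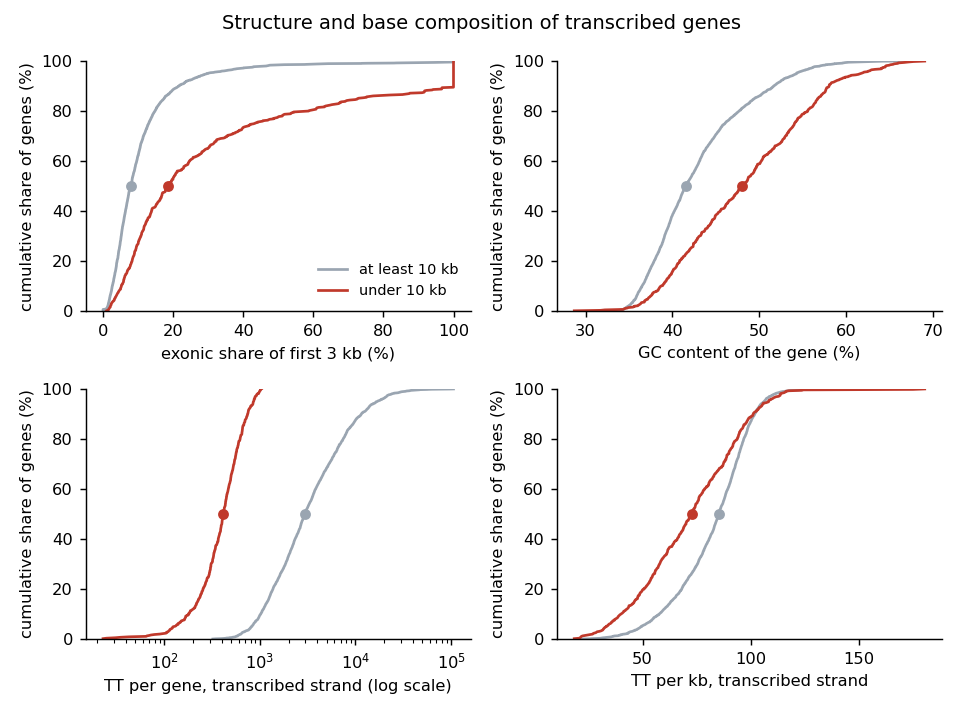
Cumulative share of genes in percent against the exonic share of the first 3 kb, the GC content, TT per gene (log scale) and TT per kb on the transcribed strand, for transcribed genes under 10 kb (red, n = 546) and of at least 10 kb (grey, n = 2454), with points at the medians. The medians are 18.6% and 7.93%, 48.1% and 41.5%, 414 and 2978, and 72.7 and 85.2, and the red and grey curves overlap over part of the range in each panel.

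At the length threshold, the last genes inside were NIFK (9931 bp, density 147.0), TGOLN2 (9963 bp, 260.6) and ZNF860 (9974 bp, 15.3), and the first outside were PIF1 (10016 bp, 39.8), PLEKHF1 (10017 bp, 27.8) and THG1L (10030 bp, 58.5). At the density threshold, the lowest inside were the unnamed genes ENSG00000236095 (15.04), ENSG00000260136 (15.08) and ENSG00000279561 (15.12), and the highest short genes outside were ALKBH2 (14.7), a DNA repair dioxygenase, NMB (14.1) and SNORC (13.997).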

How the data were processed

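H2BK120Ub ChIP-seq was performed by the authors on the 9 libraries described, trimmed with Trim Galore 0.6.5, aligned to GRCh38.p14 with BWA 0.7.17 and filtered with SAMtools 1.11 per the labels. The deposited BrU-seq value is a score, which the authors computed with HOMER 4.8.2 from STAR-aligned reads of an earlier study as the density in the first 3 kb of each gene. The authors took gene positions from the UCSC knownCanonical table. Depth is unknown from the list, and 0 columns of single libraries were available to compare.

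Gene names, classes, exons and neighbours were taken from GENCODE 44 and bases from GRCh38 (hg38), with Python 3.11.15. All 546 short transcribed genes matched the annotation by identifier. Values within 1e-06 of 0 were taken as 0. Counts, shares and medians are compared with the transcribed genes of at least 10 kb and with all listed genes, and no test was run, since genes are not replicates. The genes, the 26 functional lists and the alternatives were chosen with earlier results of these data known. The text names the 15 genes of highest density, the 10 highest under 3 kb, the 4 highest of each list, those nearest each threshold and the extremes of TT, GC and exon number; other list members and the examples of neighbours were chosen after their values were seen. Some genes that this would name are not reported here. Counters were tested on simulated data.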

Additional observations from a re-analysis of the deposited data

How the results depend on the processing

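The 11 numbers that describe the short transcribed genes were recomputed under 103 changes of 1 setting each. In 76 they stayed within the 95% interval of the reported share or median, or within 1.5 times the reported number of genes. In 22 they moved beyond it, and in 5 the order of the short and longer transcribed genes turned. The interval was computed as if genes were independent draws, which they are not, so it served only as a fixed bound. No paired analysis was possible because the list holds no value of a single library, and no replicate was left out for the same reason.

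With the length set under 5 kb there were 191 genes, 74.3% protein-coding, with a GC content of 49.8%, an exonic share of 41.2% and 269 TT per gene; the plus strand then held 59.7%, more than in longer genes, and a divergent start was present in 11.0%, less than in longer genes. Under 15 kb there were 861 genes, 86.6% protein-coding, with 47.0% GC, an exonic share of 13.7% and 566 TT per gene. With a density of at least 30, the median density was 92.3 and 88.0% were protein-coding. In protein-coding genes only, the median density was 81.3, GC 49.1%, TT per kb 69.0 and another gene entered the first 3 kb in 22.6%. Without genes that have another gene there, the median density was 77.7 and 90.9% were protein-coding. Without genes closer than 2 kb to another listed gene, the nearest listed gene lay at 42270 bp, farther than for the longer genes (40617 bp), and a divergent start was present in 14.4%, against 14.9%. Counting protein-coding neighbours only, a divergent start was present in 7.33%. All dipyrimidines gave 1677 per gene and 279.7 per kb, the latter above the longer genes, and the coding strand 497 TT per gene and 85.5 per kb. The alternative settings for autosomes, genes under 3 kb and canonical transcript length moved none of these numbers beyond these bounds. The order of the groups in strand, spacing and divergent starts therefore depends on the settings; the cause was not tested.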

Other observations

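All 5579 densities above 0 in the list were whole multiples of the smallest one, 0.0433, within 0.02 of a step, so the lowest density among the short transcribed genes, 15.04, stood 347 steps above 0. Among the lowest values, 65 genes lay at 1 step, 99 at 2, 192 at 3, 253 at 4, 35 at 5 and 79 at 6. What a step stands for is not given in the sources used here, so no counting error was derived from it.

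None of the 546 short transcribed genes held an annotated snoRNA or scaRNA gene on their strand in GENCODE 44. Such hosts were rare in the whole list, with 1 among the 2454 longer transcribed genes and 4 among the 9538 matched genes (0.0419%). No SNHG gene, the class of snoRNA hosts, was in the list. The authors selected the listed genes to be non-overlapping, which can remove genes that hold another gene beforehand. The absence of hosts among the short transcribed genes therefore cannot be read as a property of these genes. COX7C (909.6) held SNORD138, which the annotation classes as a miRNA.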
